A study of Mus musculus with 2 samples.

Results

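The chromatin repressors of the 2-cell-like state described here are 10 genes, Trim28, Kdm1a, Setdb1, Ehmt1, Ehmt2, Chaf1a, Chaf1b, Rif1, Zmym2 and Pcgf6. They were chosen by name, as genes whose loss is known to raise Zscan4 genes or the endogenous retrovirus MERVL in mouse embryonic stem cells (mESCs). All 10 were found in the deposited table of 18888 genes, each as 1 row, and all 10 had at least 1 FPKM. FPKM is the number of sequenced fragments per unit of gene length, scaled to all mapped fragments.

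RNA was sequenced from 46C mESCs, a mouse embryonic stem cell line, at passages 21 to 24 on gelatin. PB mESCs carried the empty PiggyBac (PB) vector, and PB-TERRA mESCs carried the same vector with telomeric repeats that are transcribed into polyadenylated TERRA, the telomeric repeat-containing RNA. Each group is 1 library, so no spread between cultures can be estimated and no test between the conditions was possible. Which promoter drives the transgene, and whether the cultures were clones or pools, is not given in the sources used here. TERRA itself and MERVL are not analysed here.

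In mESC cultures a small number of cells pass through a state that resembles the embryo after its first division, in which the Zscan4 genes and MERVL are transcribed. Chromatin keeps these sequences silent in the other cells. TRIM28 (also called KAP1) is brought to retroviral DNA by KRAB zinc finger proteins and recruits SETDB1, which trimethylates lysine 9 of histone H3. EHMT2 (G9a) and EHMT1 (GLP) form a heterodimer that places the mono- and dimethyl marks on the same lysine. KDM1A (LSD1) removes methyl groups from lysine 4 of histone H3, and ZMYM2 is a zinc finger partner of the KDM1A-CoREST complex. CHAF1A and CHAF1B are the large and middle subunits of CAF-1, the chaperone that places new histones behind the replication fork. RIF1 acts in replication timing and double-strand break repair and binds near telomeres, and PCGF6 is the defining subunit of the Polycomb complex PRC1.6.

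The cultures expressed the markers of mESCs. Pou5f1 had 744.67 (PB) and 773.31 FPKM (PB-TERRA), Sox2 had 133.91 and 144.88, and Nanog had 186.41 and 173.37. Of 9 listed mESC markers, all 9 reached 1 FPKM in at least 1 library, the filter used throughout, and their summed level was 3327 (PB) and 3181 FPKM (PB-TERRA). Markers of other cell types were also present. The summed level of 6 fibroblast markers was 18.6 (PB) and 22.4 FPKM (PB-TERRA). It was 29.0 and 23.0 FPKM for 4 neural markers, 3.57 and 5.44 for 4 endoderm markers, 16.1 and 14.2 for 4 mesoderm markers, and 11.2 and 14.4 for 4 trophoblast markers. Of the 22 markers 12 passed the filter, and the markers of a list did not always differ in the same direction. The counting interval of the log2 ratio, explained below, was above 0 for 6 and below 0 for 2. It was so for 18.1% and 17.5% of all genes. Of the 12, 1 reached 1 FPKM only in PB-TERRA and so had to be higher. Past the filter all endoderm and trophoblast markers were higher and all mesoderm markers lower. The fibroblast and neural lists were mixed. The genes with the highest and the lowest log2 ratio past the filter in each marker list are given, a choice made after their values were seen. Col1a1 had 7.99 (PB) and 12.14 FPKM (PB-TERRA), and Thy1, also a fibroblast marker, had 9.16 and 8.39. Nes held most of the neural sum, with 27.30 and 20.93 FPKM, and Sox1 had 1.06 and 1.56. Gata6 had 1.22 and 2.26 FPKM and Gata4 had 1.86 and 2.31, both of endoderm. The mesoderm genes T and Eomes had 9.08 and 8.37 FPKM and 6.13 and 5.05 FPKM. Hand1 had 1.36 and 2.65 FPKM, and Krt7, which held most of the trophoblast sum, had 8.68 and 9.60. Only Neurog2 among the markers was at the 0.01 FPKM floor of the table, in PB. The part of these cells in the values below was not tested, and in bulk RNA fewer cells of a type and less RNA per cell cannot be told apart.

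The 10 repressors were expressed at clearly different levels, in the same order in both libraries. Trim28 stood far above the others, with 536.30 (PB) and 480.33 FPKM (PB-TERRA), higher than 98.9% of the 12263 genes past the filter in each library. Kdm1a followed with 87.28 (PB) and 84.55 FPKM (PB-TERRA), and Rif1 with 53.90 and 60.73. The middle of the order was held by Ehmt2 (46.54 FPKM in PB, 48.17 in PB-TERRA), Chaf1a (40.23 and 41.52) and Setdb1 (39.67 and 40.01). Chaf1b had 32.33 (PB) and 31.39 FPKM (PB-TERRA), and Pcgf6 had 31.86 and 31.12. The lowest were Ehmt1, with 26.56 and 25.36 FPKM, and Zmym2, with 22.94 and 23.06. Even Zmym2 exceeded 69.8% of the genes past the filter in PB and 70.0% in PB-TERRA.

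Read numbers are not in the columns used here, but low values of short genes fall on steps of 1 read. Scaled by these steps, the estimated reads of all genes came to 24657265 for the PB library and 24827743 for the PB-TERRA library. The members then rested on about 1456 reads (Chaf1b) to 41520 reads (Trim28) in PB, and on 1424 to 37458 in PB-TERRA. All intervals given here are exact 95% intervals of these estimated reads, and they cover counting error only. For a value relative to matched genes, the interval is moved by their median, and the error of that median is left out. On that footing, Chaf1a and Setdb1 could not be told apart in level in either library, nor could Chaf1b and Pcgf6. All other neighbours in the order had intervals that did not overlap.

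**Figure D1:**
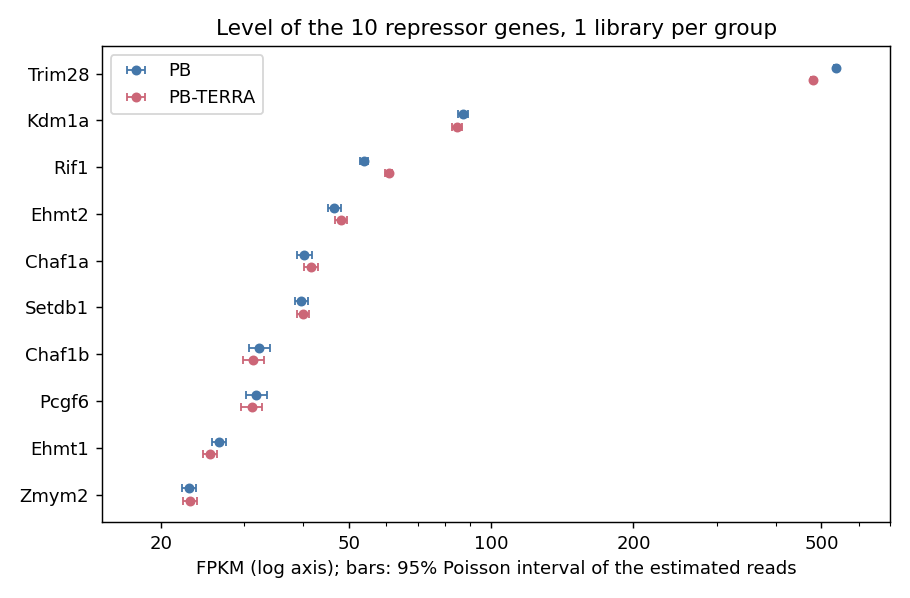
Level of each repressor gene in FPKM (log axis) in the PB library (blue) and the PB-TERRA library (red), with the exact 95% Poisson interval of the estimated reads as bars. Trim28 lies at 536.30 and 480.33 FPKM, far to the right of the other 9 genes, and the order of the genes is the same in both libraries.

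The promoters of the repressors differ in base composition from those of the Zscan4 genes, and 3 are shown to make that contrast visible. RefSeq (GRCm38.p6) gave promoters for 9 of the 10 members, 11 in all because Ehmt2 and Zmym2 have more than 1, and Rif1 was not matched. Of the Zscan4 genes, 4 were matched. The submitters' processing notes name mm9, so the positions here are those of RefSeq and not of the deposited values. The 250 bases before the start are printed 5′ to 3′, with each CG dinucleotide in capitals. Trim28 (chr7:13023902-13024151, plus strand) is the member with the lowest log2 ratio, Chaf1a (chr17:56040166-56040415, plus strand) is the member that holds 2 of the motifs searched, and Zscan4c (chr7:11005495-11005744, plus strand) is one of the genes they are known to silence.
Trim28: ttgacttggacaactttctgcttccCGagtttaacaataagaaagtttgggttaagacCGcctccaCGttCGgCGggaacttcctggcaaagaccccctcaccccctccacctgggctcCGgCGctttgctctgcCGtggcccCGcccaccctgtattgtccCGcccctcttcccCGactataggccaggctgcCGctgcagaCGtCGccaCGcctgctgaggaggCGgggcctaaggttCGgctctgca
Chaf1a: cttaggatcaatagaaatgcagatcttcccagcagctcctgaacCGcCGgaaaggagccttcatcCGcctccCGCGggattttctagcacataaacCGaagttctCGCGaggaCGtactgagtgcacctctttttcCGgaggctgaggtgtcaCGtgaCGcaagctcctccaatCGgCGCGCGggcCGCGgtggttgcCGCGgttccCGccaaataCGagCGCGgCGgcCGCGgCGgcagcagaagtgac
Zscan4c: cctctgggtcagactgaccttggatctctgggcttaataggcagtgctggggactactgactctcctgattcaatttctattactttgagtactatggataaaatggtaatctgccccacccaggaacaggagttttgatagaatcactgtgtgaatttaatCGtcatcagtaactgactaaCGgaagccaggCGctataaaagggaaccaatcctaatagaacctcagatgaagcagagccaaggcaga
The printed stretch holds 17 CG dinucleotides in Trim28, 28 in Chaf1a and 3 in Zscan4c. Over the whole windows, which run to 50 bases after the start, the 11 member promoters had 15 to 40 CG dinucleotides and a GC content of 55.3% to 82.7%. The 4 Zscan4 promoters had 1 to 4 and 46.3% to 47.7%, and the median of all 32851 promoters was 7 and 52.7%.

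By RefSeq, Trim28 lies on chromosome 7 with the Zscan4 genes, Chaf1a and Ehmt2 on chromosome 17, and Ehmt1, Setdb1, Kdm1a, Zmym2, Chaf1b and Pcgf6 on chromosomes 2, 3, 4, 14, 16 and 19.

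Short motifs were searched in these windows on both strands. The telomeric repeat unit TTAGGG was in 0 of the 11 member promoters and 0 of the 4 Zscan4 promoters, against 10.6% of all promoters. TTCCCGCC, a word bound by E2F factors, was in the promoters of Trim28 and Chaf1a, and 2.19% of all promoters hold it. CACGTG, the E-box bound by MAX, was in Chaf1a and in both promoters of Ehmt2, and 7.15% of all promoters hold it. These matches describe the letters of the windows, and binding is not analysed here.

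Between the libraries the levels of the repressors differed little. Of the 10 members 5 were higher and 5 lower in PB-TERRA, while 48.6% of all genes past the filter were higher and 50.9% lower. In the members' own range, 23.0 to 508.31 FPKM as a mean of both libraries, which holds 3572 genes, it was 48% and 51.9%. The median log2 ratio of FPKM + 0.1, PB-TERRA over PB, was -0.01 for the members, with a range from -0.16 to 0.17 and an SD of 0.09 across genes. Over all genes past the filter the median was -0.0044 and the SD 0.31. In the members' range the median was -0.005 and the SD 0.21. None of the 10 reached a log2 ratio of 1 in either direction (0 higher and 0 lower), which 0.44% of all genes did upwards and 0.473% downwards. In the members' range 0.084% did so upwards and 0.112% downwards. The interval lay above 0 for 1 member and below 0 for 1 member, and it included 0 for 8. Among all genes past the filter 18.1% had an interval above 0 and 17.5% below, and in the members' range it was 25.3% and 24.7%.

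Rif1 had the highest log2 ratio of the 10 members. Its level was 53.90 (PB) and 60.73 FPKM (PB-TERRA), 12.7% higher, from about 11626 and 13195 reads. The log2 ratio was 0.17 (95% interval 0.14 to 0.21). Of the genes in the members' FPKM range, 16.9% lay at least as far from 0 in either direction, and 7.22% had a higher log2 ratio. Rif1 is a long gene of 8867 bases, and log2 ratios were higher for longer genes in these libraries, with a median of -0.06 in the shortest decile of genes and 0.05 in the longest. Relative to the median of equally long genes, Rif1 had a log2 ratio of 0.12 (95% interval 0.08 to 0.15). Relative to genes matched in both GC content and length it had 0.07 (95% interval 0.03 to 0.10).

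Trim28 had the lowest log2 ratio of the 10 members. Its level was 536.30 (PB) and 480.33 FPKM (PB-TERRA), lower by 10.4%, from about 41520 and 37458 reads. The log2 ratio was -0.16 (95% interval -0.18 to -0.14). Among genes in the members' FPKM range, 19.6% lay at least as far from 0 and 10.9% had a lower log2 ratio. The value was -0.17 relative to equally long genes and -0.11 relative to genes matched in both GC content and length. Genes as abundant as Trim28 had a median of -0.06, and relative to them Trim28 was at -0.10 (95% interval -0.12 to -0.08). In Trim28 0 of 4392 stretches of 50 bases of the GENCODE transcripts (GRCm38) also occur in a transcript of another gene, and in Rif1 0 of 10736.

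**Figure D2:**
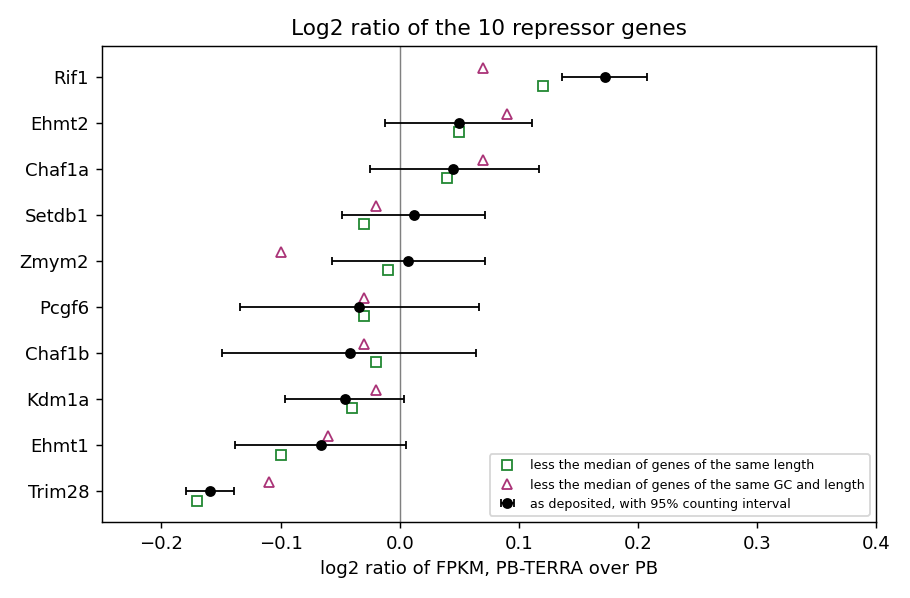
Log2 ratio of each repressor gene, PB-TERRA over PB (horizontal axis), with the exact 95% counting interval as bars. Squares show the value relative to equally long genes, and triangles relative to genes matched in both GC content and length. Rif1 at 0.17 and Trim28 at -0.16 have intervals off 0, and the other 8 bars cross it.

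Setdb1, the partner of TRIM28, had 39.67 (PB) and 40.01 FPKM (PB-TERRA). Its log2 ratio of 0.01 (95% interval -0.05 to 0.07) turned to -0.03 relative to equally long genes. The FPKM of Trim28 was 13.5 times that of Setdb1 in PB and 12.0 times in PB-TERRA. Written as Setdb1 over Trim28, the ratio was 0.0740 (95% interval 0.0717 to 0.0763) in PB and 0.0833 (0.0807 to 0.0859) in PB-TERRA. These intervals did not overlap. Of the 50-base stretches of Setdb1, 7.96% also occur in transcripts of other genes.

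Ehmt1 and Ehmt2, whose proteins work as a pair, lay on opposite sides of 0. Ehmt2 had 46.54 (PB) and 48.17 FPKM (PB-TERRA), and its log2 ratio was 0.05 (95% interval -0.01 to 0.11). Ehmt1 had 26.56 and 25.36 FPKM, a log2 ratio of -0.066 (95% interval -0.138 to 0.005). The ratio of Ehmt1 to Ehmt2 was 0.571 (95% interval 0.545 to 0.598) in PB and 0.526 (0.503 to 0.551) in PB-TERRA. The intervals overlapped, but overlap of separate intervals does not show that the ratios were the same. Relative to equally long genes Ehmt1 was at -0.10 (95% interval -0.17 to -0.03) and Ehmt2 at 0.05 (-0.01 to 0.11). Relative to genes matched in both GC content and length Ehmt1 was at -0.06 (-0.13 to 0.01) and Ehmt2 at 0.09 (0.02 to 0.15). Each interval thus lay off 0 under 1 of these corrections and included 0 under the other.

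Kdm1a had 87.28 (PB) and 84.55 FPKM (PB-TERRA), and its log2 ratio was -0.046 (95% interval -0.096 to 0.004). Relative to genes matched in length and level Kdm1a was at -0.06 (95% interval -0.11 to -0.01), close to 0 at its upper end. That interval leaves out the error of the matched median. Kdm1a was at -0.04 (-0.09 to 0.01) relative to equally long genes and at -0.02 (-0.07 to 0.03) relative to genes matched in both GC content and length. Zmym2, the partner of Kdm1a, had 22.94 and 23.06 FPKM, a log2 ratio of 0.007 (95% interval -0.057 to 0.072). Zmym2, with a length of 7039 bases, turned to -0.01 relative to equally long genes and to -0.10 (95% interval -0.16 to -0.03) relative to genes matched in both GC content and length. Kdm1a exceeded Zmym2 by a ratio of 3.80 (95% interval 3.66 to 3.96) in PB and of 3.67 (3.52 to 3.82) in PB-TERRA. Zmym2 shares 2.03% of its 50-base stretches with its paralog Zmym5.

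The CAF-1 subunits also lay on opposite sides of 0. Chaf1a had 40.23 (PB) and 41.52 FPKM (PB-TERRA), and its log2 ratio was 0.05 (95% interval -0.03 to 0.12). Chaf1b had 32.33 and 31.39 FPKM, a log2 ratio of -0.04 (95% interval -0.15 to 0.06). The ratio of Chaf1a to Chaf1b was 1.24 (95% interval 1.17 to 1.33) in PB and 1.32 (1.24 to 1.41) in PB-TERRA. The intervals overlapped, which again does not show that the ratios were the same. Of the bases that GENCODE annotates as exons of Chaf1a in any transcript, 52.5% also lie in exons of Ubxn6 on the opposite strand. Ubxn6 had 23.03 (PB) and 21.91 FPKM (PB-TERRA). Whether the counting used strand is not given in the sources used here, so reads of these genes may not be told apart there.

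Pcgf6 had 31.86 (PB) and 31.12 FPKM (PB-TERRA), and its log2 ratio was -0.03 (95% interval -0.13 to 0.07). Scaling both libraries to the same summed FPKM added 0.038 to the log2 ratio of every gene alike, so it left the members' places among all genes as they were. The members' median was then 0.025 and that of all genes past the filter 0.033. Pcgf6 was at 0.004, and the intervals of Ehmt2 and Chaf1a also lay above 0. The share of all genes past the filter with an interval above 0 was 24.9% under that scaling, and it was 36.3% in the members' FPKM range.

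**Figure D3:**
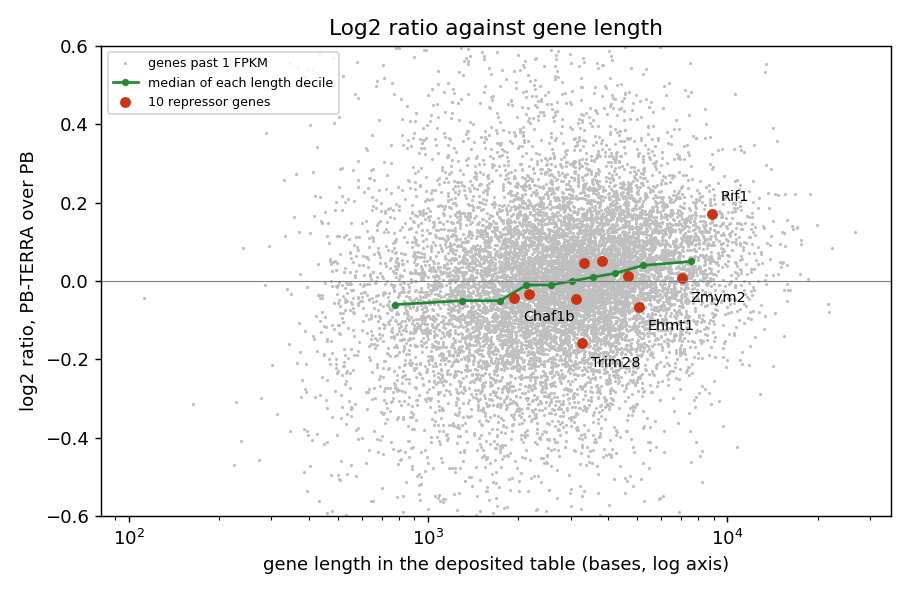
Log2 ratio, PB-TERRA over PB, against gene length in bases (log axis) for genes past 1 FPKM (grey), with the median of each length decile (green) and the repressors (red). The green line climbs from -0.06 to 0.05, with Rif1 above it and Trim28 below it, and 401 genes beyond a log2 ratio of 0.6 in either direction are outside the frame.

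The complexes in which the repressors work, and the SUMO pathway that modifies several of them, were described by 7 lists of 79 other genes, of which 76 were in the table and past the filter. In PB-TERRA 49 of them were higher and 27 lower, with a median log2 ratio of 0.06. All genes past the filter had a median of -0.0044, with 48.6% higher and 50.9% lower. With both libraries scaled to the same summed FPKM the split was 59 to 17 and the median 0.097, while 58.7% of all genes were higher, 41.3% were lower and their median was 0.033. The interval lay above 0 for 32 of the 76 genes and below 0 for 8, where the background was 18.1% and 17.5% over all genes and 25.3% and 24.7% in the members' FPKM range, and 0 genes reached a log2 ratio of 1 in either direction. Relative to equally long genes the median was 0.06, with 39.5% of the intervals above 0 and 13.2% below, against 18% and 17% of all genes and 27.9% and 21.4% in the members' FPKM range. Relative to genes matched in length and level the median was 0.038, with 31.6% above and 13.2% below, against 17.4% and 16.8% of all genes and 25.3% and 23% in that range. Relative to genes matched in both GC content and length it was 0.04, with 35.5% above and 9.21% below, against 16.7% and 15.7% of all genes and 25.9% and 20.1% in that range.

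The pathway of histone H3 lysine 9 trimethylation, which includes the heterochromatin protein 1 genes (Cbx1, Cbx3 and Cbx5), had 12 of its 16 genes higher and 4 lower in PB-TERRA, and a median log2 ratio of 0.09. The interval was above 0 for 8 and below 0 for 1. Over all genes past the filter 48.6% were higher and 50.9% lower. The interval was above 0 for 18.1% of them and below 0 for 17.5%, and for 25.3% and 24.7% in the members' FPKM range. Zfp809, a KRAB zinc finger gene that brings TRIM28 to retroviral DNA, was the highest, with 17.03 (PB) and 23.62 FPKM (PB-TERRA) (log2 ratio 0.47, 95% interval 0.32 to 0.62). Pphln1, a subunit of the HUSH silencing complex, was the lowest, with 16.84 and 15.22 FPKM (-0.15, 95% interval -0.25 to -0.04). In this list Trim28 itself would have been the lowest, at -0.16.

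Of the 5 partners of EHMT1 and EHMT2, 2 were higher and 3 lower, with a median of -0.02. Wiz, a zinc finger subunit of that complex, had 29.20 (PB) and 26.76 FPKM (PB-TERRA) (log2 ratio -0.13, 95% interval -0.20 to -0.05), and Cdyl2 had 11.81 and 12.76 FPKM (0.11, 95% interval 0.03 to 0.19). In the KDM1A-CoREST list 8 of 12 genes were higher and 4 lower, with a median of 0.06. The interval was above 0 for 3 of them and below 0 for 2, which is near the background. Over all genes past the filter the interval was above 0 for 18.1% and below 0 for 17.5%. In the members' FPKM range it was 25.3% and 24.7%. By sign, 48.6% of all genes were higher and 50.9% lower. The extremes of this list were Rcor3, with 1.95 and 2.32 FPKM (0.24, 95% interval -0.11 to 0.60), and Rcor2, with 68.87 and 64.41 FPKM (-0.10, 95% interval -0.16 to -0.03), both CoREST scaffold genes.

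Of 11 partners of CAF-1 and other chaperones of histones H3 and H4, 7 were higher and 4 lower, with a median of 0.06. The interval was above 0 for 6 and below 0 for 0. As background for this list and the next, 48.6% of all genes past the filter were higher and 50.9% lower. Their interval was above 0 for 18.1% and below 0 for 17.5%, and for 25.3% and 24.7% in the members' FPKM range. Ubn2, a subunit of the HIRA chaperone, had 9.03 (PB) and 10.53 FPKM (PB-TERRA) (log2 ratio 0.22, 95% interval 0.15 to 0.29). Cabin1, of the same chaperone, had 19.39 and 18.78 FPKM (-0.05, 95% interval -0.11 to 0.02). The PRC1.6 list had 8 of 11 genes higher and 3 lower, with a median of 0.07, and the interval was above 0 for 5 and below 0 for 0. Rybp had 59.41 and 67.84 FPKM (0.19, 95% interval 0.14 to 0.24), and its paralog Yaf2 had 5.24 and 4.71 FPKM (-0.15, 95% interval -0.40 to 0.10).

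The partners of RIF1 had a median log2 ratio of -0.11, the lowest of the 7 lists, and of -0.07 relative to equally long genes. Among the 5 genes measured, 1 was higher and 4 were lower, where 48.6% of all genes were higher and 50.9% lower. The interval was above 0 for 1 and below 0 for 3. The background of intervals was 18.1% and 17.5% over all genes and 25.3% and 24.7% in the members' FPKM range. Mad2l2, which acts in double-strand break repair, had 25.00 (PB) and 21.92 FPKM (PB-TERRA) (log2 ratio -0.19, 95% interval -0.35 to -0.03). Ppp1cb, a catalytic subunit of the phosphatase that RIF1 binds, had 66.35 and 69.74 FPKM (0.07, 95% interval 0.02 to 0.12). The other 3 genes named, of the shieldin complex, were not matched by symbol.

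**Figure D4:**
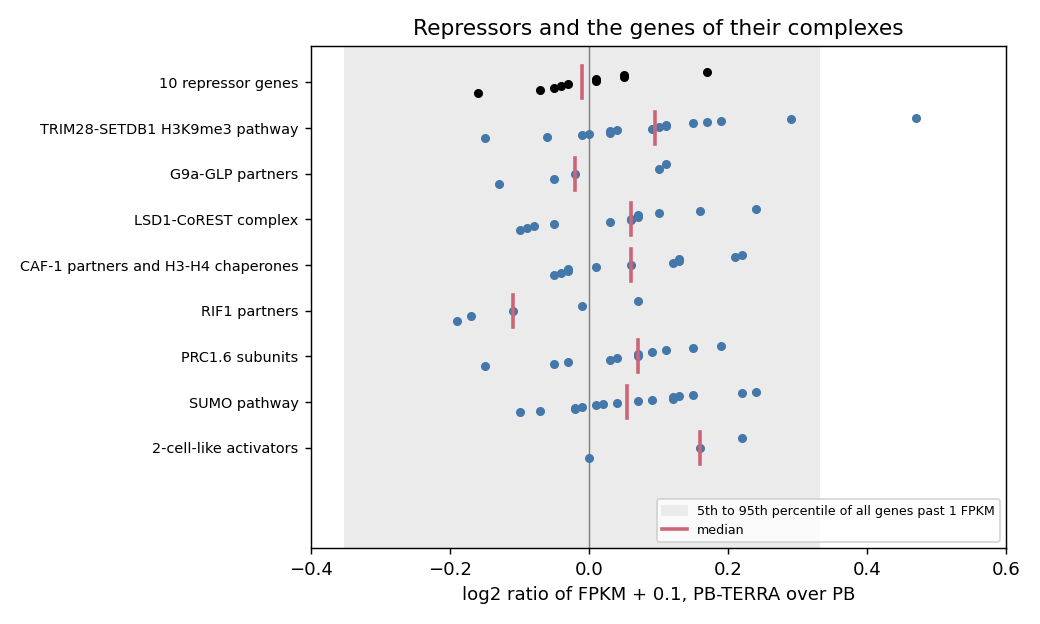
Log2 ratio, PB-TERRA over PB, of the 10 repressors (black) and of the genes of each list past 1 FPKM (blue), with the median of each list as a red bar. The grey band runs from the 5th to the 95th percentile of all genes past the filter, -0.35 to 0.33, and of the genes drawn only Zfp809 at 0.47 lies outside it.

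The genes that these repressors are known to silence were lower in PB-TERRA when taken as the Zscan4 sum. The authors reported lower Zscan4 genes from these same libraries, and the sum was chosen with earlier results known. Its value is therefore a description and adds no independent support. Summed over the 5 Zscan4 genes in the table, the level was 3.57 (PB) and 1.45 FPKM (PB-TERRA), from about 163 and 68 reads. The log2 ratio of the sum was -1.30, and that of the reads was -1.27 (95% interval -1.70 to -0.86). A list of 30 other 2-cell-like genes had 23 in the table, and only Gm2016 and Ddit4l passed the filter. Gm2016 had about 41 and 14 reads (log2 ratio -1.32, 95% interval -2.55 to -0.66), but it reached 1 FPKM in PB alone, so that a gene kept in this way had to be lower in PB-TERRA and its value is a description. Ddit4l, which is also expressed outside this state, was higher, with 3.88 and 5.88 FPKM (0.59, 95% interval 0.37 to 0.84). The 23 genes together had 424 and 460 reads (0.11, 95% interval -0.09 to 0.30). Without Ddit4l, left out after its value was seen, the other 22 had 175 and 79 reads (-1.16, 95% interval -1.56 to -0.77). Single values of such genes are uncertain, because many have near-identical copies.

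Activators of the state were higher or near equal in PB-TERRA. Dppa2, a SAP domain factor that switches on early embryonic genes, had 73.46 (PB) and 85.50 FPKM (PB-TERRA) (log2 ratio 0.22, 95% interval 0.15 to 0.29). Nelfa had 54.89 and 54.81 FPKM, and the median of the 3 genes listed was 0.16. The third, Dppa4, named after its value was seen, had 74.29 and 82.97 FPKM (0.16, 95% interval 0.08 to 0.24).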

How the data were processed

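RNA of 46C mESCs was sequenced by the authors as 1 PB and 1 PB-TERRA library. The submitters' processing notes name HISAT, Cufflinks and build mm9, without versions or roles. The annotation and the strand setting are not given in the sources used here. The header of the deposited table names no unit. Its expression values were read as FPKM, given by the authors to 2 decimals and never below 0.01. The columns of the authors' own comparison (fold change, p-value, FDR and call) were not used.

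Log2 ratios were computed on FPKM + 0.1 for genes with at least 1 FPKM in 1 library. Depth was estimated by bringing the low values of short genes (250 to 900 bases, under 8 reads) nearest to whole reads, with 113 bases taken off the length, a fitted value. Of the values used, 69.6% in PB and 76.3% in PB-TERRA were whole within the rounding of FPKM. Intervals are exact binomial (Clopper-Pearson) for ratios and exact Poisson for levels, at 95%. They describe 2 libraries and do not compare conditions, so p-values are left out. The steps were tested on simulated data. Tools were scipy 1.17.1, numpy 2.4.6, matplotlib 3.10.9 and pandas 2.3.3 under Python 3.11.15.

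The members and lists were chosen with earlier results of these data known. The genes named are the 10 members, the highest and the lowest log2 ratio past the filter of each pathway and 2-cell-like list (the cell type marker lists were not part of this rule), the summed Zscan4 genes, and Pou5f1, Sox2 and Nanog. With 2 libraries no likeness of patterns between genes can be measured. Alternatives were the pseudocount, the filter, the scaling, estimated reads, and corrections for length (50 bins), level, and GC content with length. GC content was available for 93.5% of genes past the filter. Corrections for level and GC content were chosen after seeing the data.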

Additional observations from a re-analysis of the deposited data

How the results depend on the processing

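No paired analysis was possible because each group has 1 library, and for the same reason no library could be left out in turn. Each count, median, sum and ratio was recomputed under the alternatives that apply to it. Of these recomputed values 133 stayed close to the value reported, meaning within 1.5 times for a count, within 0.063 (log2) for a median and within the counting interval for a sum or ratio, and 10 moved. A median can change sign within that limit. The members lie far above the filter and the pseudocounts, so changing these could hardly move their values. Median-of-ratios scaling left the ratios as they were, and the estimated reads were derived from the FPKM. Values that stayed close under these settings are therefore no support. Trim28 stayed between -0.17 and -0.10 and Rif1 between 0.07 and 0.21 in all 11 alternatives. Of the other members, Setdb1 changed sign in 3 of 11, Zmym2 in 4 and Pcgf6 in 1, the last by a shift common to all genes. With both libraries scaled to the same summed FPKM, the interval lay above 0 for 3 members, and of the genes of the 7 lists 17 were lower, 42 had an interval above 0 (55.3%) and 5 below 0 (6.58%), against 24.9% above and 12.3% below over all genes. Relative to equally long genes, 3 members were higher and 2 had an interval below 0, against 49.9% of all genes higher and 17% below. With length and level together, 3 were higher and 3 had an interval below 0 (Trim28, Ehmt1 and Kdm1a), against 49.8% and 16.8% of all genes. With GC content and length together, 3 were higher, 2 had an interval above 0 and 2 below 0, against 49.8%, 16.7% and 15.7% of all genes. The intervals of reads are narrow, but the spread between cultures is not known from 1 library per group.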

Other observations

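The SUMO pathway, which modifies TRIM28 and keeps the 2-cell-like state rare, was listed as a further group. Of its 16 genes 11 were higher and 5 lower in PB-TERRA, with a median log2 ratio of 0.05. Of all genes past the filter 48.6% were higher and 50.9% lower. The interval was above 0 for 7 and below 0 for 1, where the background was 18.1% and 17.5% over all genes and 25.3% and 24.7% in the members' FPKM range. Senp7, a protease that removes SUMO chains, had 2.15 (PB) and 2.56 FPKM (PB-TERRA) (log2 ratio 0.24, 95% interval -0.13 to 0.64). Sae1, a subunit of the enzyme that activates SUMO, had 157.80 and 146.78 FPKM (-0.10, 95% interval -0.15 to -0.06).

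The gene ontology terms in the deposited table cover 8 of the 10 repressors for cellular component. Of 11 terms that at least 3 members share, nuclear chromatin is carried by the most. It is given for 5 of these 8, Chaf1b, Ehmt2, Kdm1a, Setdb1 and Trim28, and for 0.928% of the 8405 genes past the filter with a component annotation. The members were chosen by name as chromatin repressors, so this share follows from the choice and is a description.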
